A study of Mus musculus with 6 samples.

Results

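The 64 genes described here encode the main families of guidance cues and their receptors: 20 semaphorins, 9 plexins, 2 neuropilins, 14 Eph receptors, 8 ephrins, 3 slits, 4 robos and 4 netrins. They are all protein-coding genes of the RefSeq table of GRCm38.p6 whose symbols name one of these families, among 21887 such genes on the nuclear chromosomes. They were chosen by name and not by a threshold on any measured value, with earlier results of these data known. The cells were B16, a melanoma line from mice, and the assay was CUT&Tag, in which an antibody brings a transposase to its target so that the DNA nearby is cut and tagged. The lists of peaks came from 2 libraries labelled WT, with no treatment or clone named. The target of the first was H3K4me3, histone H3 trimethylated at lysine 4, which marks active and poised promoters. The target of the other was p300, a histone acetyltransferase of enhancers and promoters. Each antibody had 1 library, so there is no replicate check. The main shares of members have an exact (Clopper-Pearson) 95% binomial interval for counting error alone. It treats genes as independent, though neighbouring members can share a peak. Shares of motifs, of CpG classes and under other settings are given without one. The labels also describe 4 H3K9me3 libraries, titled WT, TdgKO, Trp53KO and TdgTrp53DKO, which were not analysed here.

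Semaphorins bind plexins, and the secreted class 3 semaphorins mostly do so together with a neuropilin co-receptor. Ephrins are held on the cell surface and bind Eph receptor tyrosine kinases on neighbouring cells. Slits are secreted ligands of robos, and netrins are laminin-like secreted proteins that bind DCC and UNC5 receptors. These systems steer axons, vessels and migrating neural crest cells, the embryonic source of melanocytes, by repulsion or attraction. Several of them also act in the spread of melanoma.

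The label of the cells was first set beside marker genes. Of 7 melanocyte genes 6 had H3K4me3 at an end (Dct, Mitf, Pmel, Sox10, Tyr and Tyrp1, not Mlana). Of 21 markers of endothelial, neuronal, epithelial and leukocyte cells 2 had it, the neuronal gene Syt1 and the macrophage gene Cd68. The share over all protein-coding genes was 50.5%. In the gene or within 1 kb the groups lay closer: 7 of 7 melanocyte and 3 of 6 endothelial markers had H3K4me3. So did 1 of 5 in each of the neuronal, epithelial and leukocyte lists, against 58.9% of all genes. A peak at a gene end is one no farther than 1 kb from either end of the annotated span, so that promoters and 3′ ends are both taken in. The number of reads at each summit was recovered from the authors' fold enrichment and −log10 p, and had a median of 80.0 over all 27019 H3K4me3 peaks and 39.0 over all 6512 p300 peaks. The smallest listed summits held 15 and 14 reads, which limits what an absent peak can show.

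H3K4me3 was found at an end of 36 of the 64 guidance genes, p300 at an end of 3, and p300 somewhere in or within 50 kb of 34. The share with H3K4me3 at an end was 56.2% (43.3 to 68.6%), against 50.5% of all protein-coding genes. The share with p300 at an end was 4.69% (0.977 to 13.1%), against 13.5% of all genes. Anywhere in the gene or up to 1 kb outside it, H3K4me3 was found at 54 of 64, or 84.4% (73.1 to 92.2%), against 58.9% of all genes. Counted in the same way, p300 was found at 17, or 26.6% (16.3 to 39.1%), against 20.0%. With 50 kb added on both sides, p300 was found for 53.1% (40.2 to 65.7%), against 44.2%, and H3K4me3 for 59 genes, 92.2% (82.7 to 97.4%), against 75.5%. Of the 28 genes without H3K4me3 at an end, 18 had it inside, where 17.0% of all such genes of any length did. This contrast was not split by gene length, and members are longer than most genes. Among genes over 100 kb, 13 of 29 members and 51.2% of all genes had H3K4me3 at an end. In the gene or up to 1 kb outside, 24 of 29 and 74.7% of these long genes had it. The order of members and all genes depended on how peaks were counted: with a window of 500 bp, 43.8% of members and 47.5% of all genes had H3K4me3 at an end, and with peaks at or above the median fold 21.9% and 34.4%. At the median fold, p300 within 50 kb was likewise found for 21.9% of members and 27.6% of all genes, and p300 in the gene or up to 1 kb outside for 9.38% and 10.9%. With peaks at or above the median −log10 q, members stayed above all genes for p300. The shares were 31.2% and 27.1% within 50 kb, and 12.5% and 10.5% in the gene or up to 1 kb outside. No test was made of these differences, because there is 1 library per antibody and the members are a fixed list of genes. The whole gene set includes 1110 olfactory receptor genes, of which 0 had H3K4me3 at an end. Without them 53.2% of all genes had H3K4me3 and 14.2% had p300 at an end, 62.1% and 21.0% had them in the gene or up to 1 kb outside, and 46.4% had p300 within 50 kb. H3K4me3 within 50 kb was not recomputed without them.

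**Figure D1:**
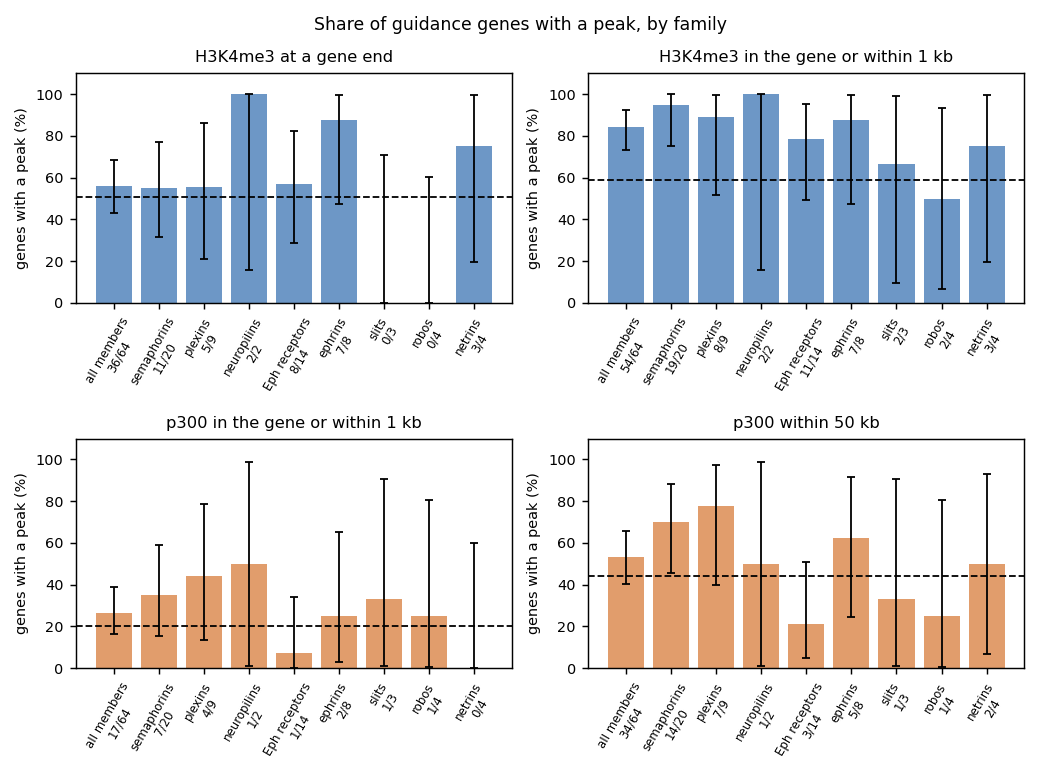
Percentage of genes with a peak, for all 64 guidance genes and for each of 8 families (count over number of genes under each bar), by 4 measures. Bars start at 0, error bars are exact 95% binomial intervals, and the dashed line is the percentage of all 21887 protein-coding genes. The semaphorin and plexin bars for p300 within 50 kb stand at 70.0% and 77.8% and the Eph receptor bar at 21.4%, with wide intervals.

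Guidance genes are long, and the length of a gene bears on these counts. The median span was 40153 bp against 17169 bp for all protein-coding genes, the shortest being 4636 bp (Efna4) and the longest 1555468 bp (Robo2). Among the 29 members over 100 kb, H3K4me3 in the gene or within 1 kb was found for 82.8% (64.2 to 94.2%), and 74.7% of all genes of that length had it. Among the 30 members under 30 kb the share was 83.3% (65.3 to 94.4%) against 50.7%. p300 within 50 kb was found for 70.0% (50.6 to 85.3%) of the short members against 42.2% of all short genes. For the long members it was 34.5% (17.9 to 54.3%) against 45.3%. The remaining 5 members, of 30 to 100 kb, had shares of 100% and 60.0% by these measures, against 74.6% and 49.4%.

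Promoters were located more closely with the listed transcription starts, which the RefSeq promoter table gives for 56 of the 64 genes. H3K4me3 lay within 1 kb of a listed start of 37 of them, 66.1% (52.2 to 78.2%), against 52.8% of 17492 genes with a listed start. p300 did so for 6, 10.7% (4.03 to 21.9%), against 14.4%. These 6 are Efna1, Plxnb2, Robo1, Sema4b, Sema4c and Sema6b, and all 6 also had H3K4me3 there. The 250 bases before their outermost start with p300 within 1 kb are shown here. H3K4me3 also lay within 1 kb of each of these starts. The windows printed for Efna1, Robo1 and Sema4c lie outside the p300 peak, and that of Sema4c also lies outside the H3K4me3 peak. The upstream sequences of Epha8 and Slit3 are shown beside them as the most CpG-rich among the guidance genes without a peak of either list within 50 kb. Capitals mark matches, on either strand, to CATGTG and CACGTG (E-boxes, a kind of site bound by MITF). They also mark TGANTCA (the AP-1 motif), GGAATG (the TEAD motif), CCGGAAG (an ETS motif), GGGCGG (the GC box) and the p53 half-site. Adjoining or overlapping matches run together. The sequences are from RefSeq, build GRCm38.p6, and are printed 5′ to 3′ on the strand of the gene.
Efna1 (chr3:89280952-89281201, minus strand): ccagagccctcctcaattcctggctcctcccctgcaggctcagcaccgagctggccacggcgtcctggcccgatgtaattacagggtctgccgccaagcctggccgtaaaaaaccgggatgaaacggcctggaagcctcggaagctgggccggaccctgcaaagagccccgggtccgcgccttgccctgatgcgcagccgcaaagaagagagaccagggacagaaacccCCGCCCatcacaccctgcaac
Plxnb2 (chr15:89180789-89181038, minus strand): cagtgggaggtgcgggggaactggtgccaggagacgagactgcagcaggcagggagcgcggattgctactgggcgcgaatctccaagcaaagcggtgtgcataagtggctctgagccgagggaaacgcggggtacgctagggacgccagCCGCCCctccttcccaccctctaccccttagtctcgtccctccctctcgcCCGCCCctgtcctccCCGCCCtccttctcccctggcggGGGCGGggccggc
Robo1 (chr16:72662899-72663148, plus strand): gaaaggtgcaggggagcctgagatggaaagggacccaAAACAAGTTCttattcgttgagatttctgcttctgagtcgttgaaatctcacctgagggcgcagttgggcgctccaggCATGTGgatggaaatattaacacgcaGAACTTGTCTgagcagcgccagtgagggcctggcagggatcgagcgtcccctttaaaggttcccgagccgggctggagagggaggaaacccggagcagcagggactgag
Sema4b (chr7:80186620-80186869, plus strand): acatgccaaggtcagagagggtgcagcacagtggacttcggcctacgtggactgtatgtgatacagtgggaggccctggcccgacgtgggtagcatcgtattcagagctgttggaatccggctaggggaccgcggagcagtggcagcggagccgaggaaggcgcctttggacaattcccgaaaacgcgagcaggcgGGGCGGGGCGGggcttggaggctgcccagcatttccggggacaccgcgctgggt
Sema4c (chr1:36558382-36558631, minus strand): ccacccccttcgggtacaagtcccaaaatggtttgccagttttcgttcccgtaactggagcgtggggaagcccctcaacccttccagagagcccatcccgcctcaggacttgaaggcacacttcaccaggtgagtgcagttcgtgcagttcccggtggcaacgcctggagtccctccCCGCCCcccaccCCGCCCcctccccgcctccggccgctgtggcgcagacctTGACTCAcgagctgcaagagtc
Sema6b (chr17:56133853-56134102, minus strand): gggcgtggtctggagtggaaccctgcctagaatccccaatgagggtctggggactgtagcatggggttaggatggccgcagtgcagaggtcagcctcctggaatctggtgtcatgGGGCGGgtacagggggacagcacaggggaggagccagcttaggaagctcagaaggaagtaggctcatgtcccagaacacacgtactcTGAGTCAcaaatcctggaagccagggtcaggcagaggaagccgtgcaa
Epha8 (chr4:136956817-136957066, minus strand): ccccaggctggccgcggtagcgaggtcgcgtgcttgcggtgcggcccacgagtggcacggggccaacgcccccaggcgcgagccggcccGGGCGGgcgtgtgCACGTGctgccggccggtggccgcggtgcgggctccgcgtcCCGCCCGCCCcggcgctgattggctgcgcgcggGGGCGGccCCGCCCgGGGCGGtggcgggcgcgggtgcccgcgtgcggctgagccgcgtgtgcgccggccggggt
Slit3 (chr11:35121206-35121455, plus strand): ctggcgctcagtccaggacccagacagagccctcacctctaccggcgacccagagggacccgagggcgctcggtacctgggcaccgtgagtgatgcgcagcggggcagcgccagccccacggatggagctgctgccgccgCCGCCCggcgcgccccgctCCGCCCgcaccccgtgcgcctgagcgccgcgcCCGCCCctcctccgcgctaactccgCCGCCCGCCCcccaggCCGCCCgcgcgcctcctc

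The GC box was in 5 of the 6 windows printed for starts with p300 and was not found in that of Robo1. Over all 9 listed starts of these 6 genes with p300 it was in 8 windows, 88.9%, against 65.7% of the 3013 windows of all protein-coding genes with p300 within 1 kb of the start. Robo1 instead held 2 matches to the p53 half-site, beginning 213 and 109 bases before the start, and a CATGTG match at 135 bases. TGANTCA was found 22 bases before the outermost Sema4c start and 48 bases before the Sema6b start. The Sema4c match, like all matches in the printed Robo1 and Efna1 windows, lies outside the p300 peaks. Over all 72 listed starts of guidance genes, GGGCGG was in 70.8% of upstream windows, against 42.6% of 21263 windows of all protein-coding genes. The p53 half-site was in 6.94% against 6.31%, TGANTCA in 4.17% against 6.13%, CACGTG in 5.56% against 6.63%, and GGAATG in 11.1% against 11.7%. CATGTG was in 4.17% against 10.1%, and CCGGAAG in 2.78% against 8.98%. A match describes the letters and does not show that a factor was bound.

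CpG-rich starts were marked by H3K4me3 more often than CpG-poor ones, among guidance genes as among all genes. The median number of CpG in 250 bases was 17.5 at the 42 member starts with H3K4me3 within 1 kb and 8.50 at the 30 without. For all genes these medians were 17.0 and 3.00. Of the 13 member starts with under 5 CpG, 1 had H3K4me3 (7.69%, against 10.3% of all such starts), and it belonged to Sema4f, which encodes a membrane-bound semaphorin. Of the 37 starts with 15 or more CpG, 27 had it, 73.0% against 84.5% of all such starts. The 10 CpG-rich starts without it belonged to Efna2, Epha6, Epha8, Epha10, Ephb3, Plxna2, Sema5a, Sema5b, Sema6b and Slit3. The Epha8 window holds 46 CpG and the Slit3 window 35, as can be read from the sequences above.

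**Figure D2:**
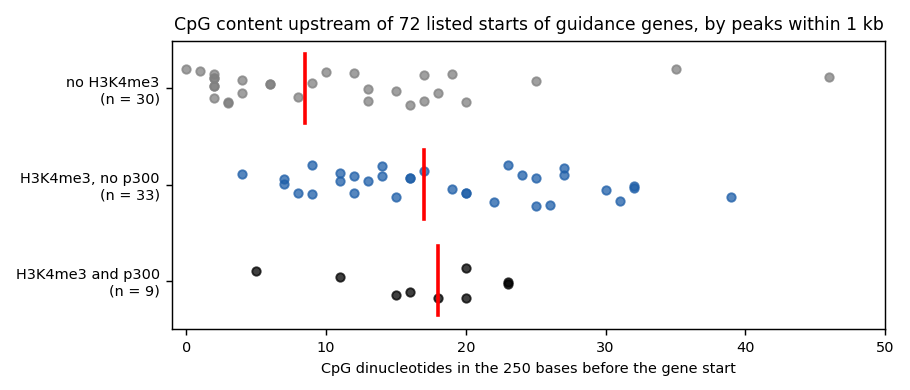
Number of CpG dinucleotides in the 250 bases before each of 72 listed starts of guidance genes (horizontal axis), in 3 groups by peaks within 1 kb. Each point is a start, vertical scatter is for display, and red bars are medians of 18.0, 17.0 and 8.50 from bottom to top. The starts without H3K4me3 run from 0 to 46 CpG and overlap the marked ones.

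Semaphorins, the largest family, had H3K4me3 in the gene or within 1 kb for 19 of 20, Sema5a being the exception, and at an end for 11. The first share was 95.0% (75.1 to 99.9%), against 58.9% of all genes. The share at an end was 55.0% (31.5 to 76.9%), near the 50.5% of all genes. The strongest peak at an end by −log10 q was that of Sema4c, a membrane-bound ligand of plexin-B2, with a fold of 6.67, a −log10 q of 105 and 230 reads. That peak lay 955 bp beyond the 3′ end of Sema4c and also at an end of its neighbour Ankrd39. Sema6c followed with a peak of 1539 bp across its 5′ end, at fold 8.26 and 162 reads. Sema4b had a peak of 1307 bp there, at fold 6.42 and 177 reads. By −log10 q the Sema6c peak stood at percentile 88.4 of the whole list and the Sema4b peak at 84.7. At its start Sema4c had a further H3K4me3 peak, of 3165 bp and 330 reads. The class 3 gene Sema3e, a ligand of plexin-D1, had the highest fold of the members' end peaks, 12.2, over 102 reads, and was named after its value was seen. At the low end, Sema7a, a lipid-anchored ligand of plexin-C1 and integrins, had 2 peaks at its 5′ end with 42 and 49 reads.

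Plexins carried H3K4me3 at an end of 5 of 9 genes (55.6%, 21.2 to 86.3%, against 50.5% of all genes). In the gene or within 1 kb they had it for 8 (88.9%, 51.8 to 99.7%, against 58.9%). Plxna1, a co-receptor with neuropilins for class 3 semaphorins, had the strongest end peak of all 64 genes (chromosome 6, 89360194 to 89361775), with fold 7.57, −log10 q 155 and 308 reads. It lay inside the annotated span, 838 bp from the upper end, and also at an end of Gm40415. Plxna3 had a peak at its 5′ end with fold 8.57, −log10 q 42.1 and 72 reads. Plxnb2, the receptor of Sema4c, had one with fold 3.20, −log10 q 41.0 and 200 reads, shared with the neighbour Dennd6b. A fold is a ratio to a local background, so Plxnb2 has a lower fold than Plxna3 with more reads at the summit. The receptor of Sema4d, Plxnb1, had no peak within 1 kb of an end, but a peak of 3087 bp, fold 3.81 and 209 reads reached within 1 kb of its listed start, with the summit 2618 bp after it. Plxnb3 was the plexin without H3K4me3 inside or up to 1 kb away.

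Both neuropilins, co-receptors for class 3 semaphorins and for VEGF, had H3K4me3 at their 5′ end. Nrp1 had a single peak of 2503 bp with fold 4.83, −log10 q 50.7 and 148 reads, and no p300 peak nearer than 148724 bp. Nrp2 had a narrow peak of 312 bp at the start, with fold 1.70, −log10 q 6.49 and 138 reads, and was 1 of 9 H3K4me3 peaks in the gene. The highest −log10 q of these, 77.2, was that of a peak 40106 bp from the start with fold 6.22 and 178 reads.

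Eph receptors had H3K4me3 at an end of 8 of 14 genes (57.1%, 28.9 to 82.3%) and ephrins of 7 of 8 (87.5%, 47.3 to 99.7%). Both intervals include the 50.5% of all genes. The end peak of Efna2 lay 660 bp beyond its 3′ end, and no H3K4me3 lay within 1 kb of its listed start. Among the receptors Epha3 had fold 8.75, −log10 q 89.9 and 158 reads at its 5′ end. Ephb4, the receptor of ephrin-B2 in veins, had fold 7.24, −log10 q 86.6 and 176 reads, and Epha7 had fold 5.46 and 118 reads. Epha2, the receptor of ephrin-A1, had a small end peak of 325 bp and 54 reads and a stronger one inside the gene at −log10 q 61.1. Among the ligands Efnb1 was strongest, with fold 8.16, −log10 q 83.3 and 154 reads. Efna1 had a peak of 2865 bp across its 5′ end with fold 4.38 and 197 reads, the widest end peak of the 64 genes, and Efna3 one of 840 bp with fold 6.59 and 125 reads. Efnb2 had fold 9.17 over 65 reads. Efnb3 was the ephrin without H3K4me3 in the gene or within 1 kb, and Epha6, Epha8 and Ephb1 were the receptors without it.

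No slit and no robo gene had H3K4me3 within 1 kb of an annotated end. The counts were 0 of 3 (0 to 70.8%) and 0 of 4 (0 to 60.2%), intervals that include the 50.5% of all genes. Yet 3 of the slit and robo genes had it at a listed start inside the span. The slit Slit2 had a peak of 1380 bp, fold 9.19 and 106 reads, with its summit 411 bp after the listed start. Its receptor Robo1 had a peak of 1731 bp, fold 6.90 and 167 reads, 84 bp after a start that lies deep in the gene. Robo2 had one of 1738 bp, fold 8.23 and 139 reads, 1 bp before such a start. Slit1 had 3 weaker peaks inside the gene, the strongest with 52 reads. Slit3, Robo3 and the endothelial receptor Robo4 had none in the gene or within 1 kb. Netrins had weak peaks at an end of 3 of 4 genes: Ntn3 with fold 3.15 and 83 reads, Ntn5 with fold 4.57 and 35 reads, and Ntn4 with fold 4.24 and 22 reads. The Ntn5 peak lay 537 bp beyond the 3′ end and within 1 kb of an end of Sec1. Ntn1 had no peak of either list within 50 kb, like Epha8, Ephb1, Sema5a and Slit3. These 5 of 64 genes compare with 24.2% of all protein-coding genes.

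**Figure D3:**
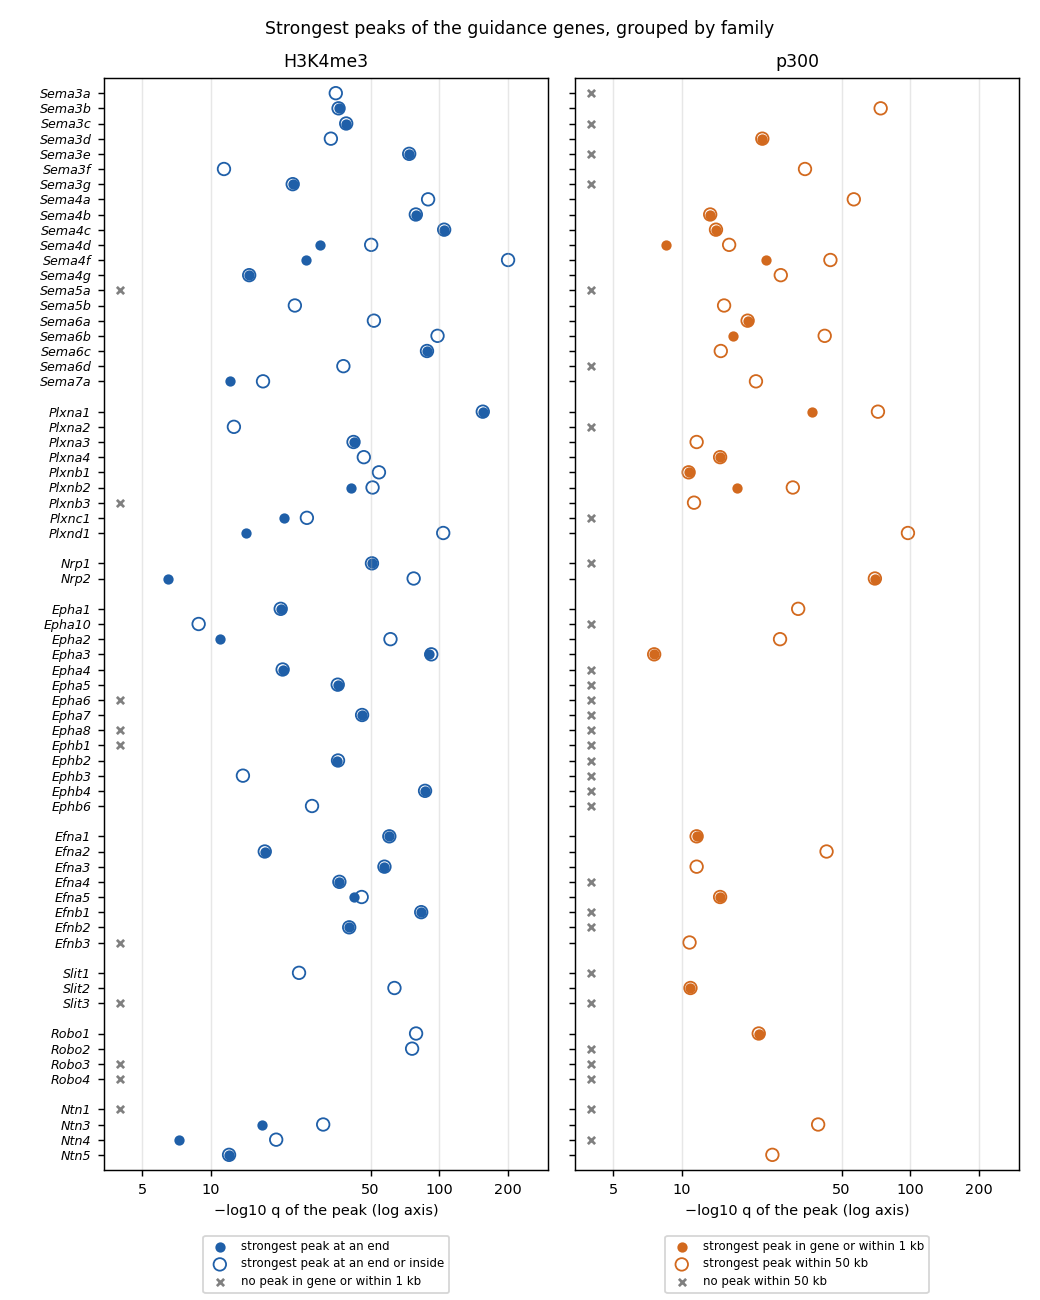
Strongest H3K4me3 peak (left) and p300 peak (right) of each of the 64 genes, as −log10 q on a log axis, by family. Filled points are peaks at a gene end (left) or in the gene or within 1 kb (right), open circles the strongest peak of the wider window, and grey crosses mark genes with no peak in that window. The H3K4me3 points of Plxna1 at 155 and Sema4f at 200 lie farthest right, and 11 of 14 Eph receptors have a cross for p300.

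The end of a gene and the start of its transcripts gave different sets of marked genes. Of the 56 genes with a listed start, 31 were marked at both, 3 at an end only (Efna2 and Ntn5 at the 3′ end, Sema4d at the 5′ end), 6 at a listed start only (Ephb6, Plxnb1, Robo1, Robo2, Sema6b and Slit2) and 16 at neither. Of those 16, 8 had H3K4me3 elsewhere in the gene. The nearest end peaks just inside the limit were those of Sema4c at 955 bp and Plxnc1 at 936 bp, and just outside it those of Sema3f at 1115 bp and Sema6b at 1194 bp. For p300, Efna1 lay inside at 798 bp and Plxna1 outside at 1035 bp.

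H3K4me3 peaks at member ends were weaker and narrower in the middle of their distribution than those at all gene ends. For the 44 peaks the medians were 829 bp in width, 5.04 in fold and 71.5 in reads. The 11673 peaks at ends of all protein-coding genes had medians of 980 bp in width, 6.71 in fold and 117 reads. These medians are over peaks and not genes: the 44 lay at 36 members and the 11673 at 11045 genes. A gene with a weaker side peak thus counts more than once, and the strongest end peaks per gene were not compared. Inside genes and away from the ends the members' 89 peaks had a median fold of 5.55 and 64 reads, against 5.68 and 59 for all genes. Among genes with H3K4me3 at an end, p300 was at an end of 3 of 36 members, 8.33% (1.75 to 22.5%), against 26.5% of all such genes. By listed starts it was 6 of 37, 16.2% (6.19 to 32.0%), against 27.2%. Within 50 kb, p300 was found for 22 of the 36 (61.1%, 43.5 to 76.9%), against 62.8%, and for 12 of the 28 without H3K4me3 at an end (42.9%, 24.5 to 62.8%), against 25.4%. The lower number of reads at the members' H3K4me3 summits moves with this difference, and its part in it was not tested.

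p300 at a gene end was found for Efna1, Plxnb2 and Sema4b, at percentiles 29.9, 56.9 and 39.4 of the p300 list by −log10 q. Summit positions are given from the nearest listed start, negative upstream. The Efna1 peak (chromosome 3, 89279614 to 89280153) had fold 4.42, −log10 q 11.6 and 38 reads, with the summit at -225 bp. That of Plxnb2 (chromosome 15, 89180828 to 89181438) had fold 4.16, −log10 q 17.5 and 62 reads, with the summit at -208 bp, and lies at an end of Dennd6b as well. That of Sema4b (chromosome 7, 80186156 to 80187021) had fold 4.84, −log10 q 13.3 and 39 reads, with the summit at -239 bp, and a weaker one of 26 reads lay at -343 bp from the inner start. At starts inside the annotated span, p300 was found at Sema4c with 52 reads, Sema6b with 53 and Robo1 with 24. The H3K4me3 peaks at these 3 starts held 330, 236 and 167 reads, counts from another library whose depth is unknown.

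The share of genes with p300 nearby was highest among plexins and semaphorins and lowest among Eph receptors, with wide intervals. Within 50 kb it was found for 14 of 20 semaphorins (70.0%, 45.7 to 88.1%) and 7 of 9 plexins (77.8%, 40.0 to 97.2%). For Eph receptors it was 3 of 14 (21.4%, 4.66 to 50.8%), for ephrins 5 of 8, for netrins 2 of 4, for slits 1 of 3 and for robos 1 of 4. All ligands together had it for 22 of 35 (62.9%, 44.9 to 78.5%) and all receptors for 12 of 29 (41.4%, 23.5 to 61.1%), against 44.2% of all genes. The intervals of the families overlap, and these differences were not tested. The 3 receptors were Epha1, Epha2 and Epha3, and inside the gene only Epha3 among the 14 had a p300 peak, of 18 reads.

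The p300 peaks numbered 78, of which 72 overlapped H3K4me3, 92.3% (84.0 to 97.1%), against 85.5% of all p300 peaks. In the genes or within 1 kb there were 26, with 23 of them overlapping H3K4me3 (88.5%, 69.8 to 97.6%), against 88.9% of all p300 peaks in protein-coding genes. The other 52 lay outside the members, and 37 of these lay over another protein-coding gene and 24 at an end of one. Of the 22 peaks in or within 1 kb of genes with a listed start, 7 had their summit within 1 kb of it, 5 at 1 to 10 kb and 10 farther away, up to 279139 bp in Slit2. The 6 p300 peaks without H3K4me3 were near Epha1, Ntn3 and Sema7a and inside Sema3d, Sema4f and Slit2. The Sema3d peak had the highest fold of the 78, 10.1, over 32 reads.

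**Figure D4:**
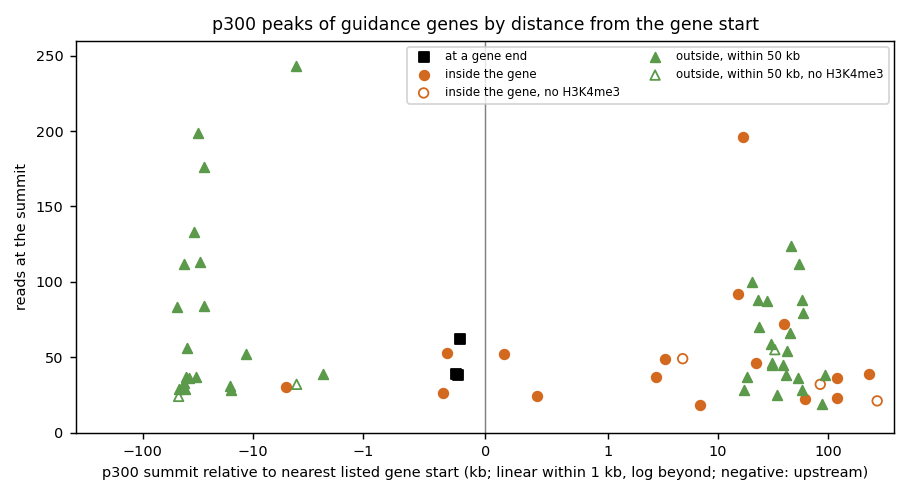
p300 peaks in and within 50 kb of the guidance genes with a listed start, by distance of the summit from the nearest listed start in kb (horizontal axis, linear within 1 kb and log beyond, negative upstream) and reads at the summit (vertical axis). Squares are peaks at a gene end, circles inside the gene and triangles outside it, and open symbols have no H3K4me3. The highest points are the upstream peak of Plxnd1 with 243 reads and 2 peaks near Sema4a and in Nrp2 with 199 and 196.

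Several p300 peaks lay inside or just outside guidance genes with no other protein-coding gene over them. Nrp2 had 4, all in the gene, with summits up to 40172 bp from its start and all overlapping H3K4me3. They held 49, 92, 196 and 72 reads from the start inward, and the third (chromosome 1, 62719747 to 62720933) had fold 5.14 and −log10 q 70.0. The peak of 92 reads lay within 1 kb of an end of the lncRNA gene Gm29083. Plxnd1, the receptor of Sema3e, had none inside but one of 1385 bp that began 2787 bp beyond its 5′ end (chromosome 6, 115998126 to 115999510). It had fold 5.80, −log10 q 97.7 and 243 reads, the most reads of the 78, and lay within an H3K4me3 peak of 333 reads. This gene was chosen after its values were seen. Nearer the start of Plxnd1, H3K4me3 peaks held 222 reads upstream and 222 and 380 reads inside the gene.

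Plxna1 had 4 p300 peaks. In the gene, one of 2048 bp held 138 reads. A smaller one of 32 reads lay under its strong H3K4me3 peak and, like it, at an end of the protein-coding gene Gm40415. The strongest, with fold 6.96 and 153 reads, lay 35216 bp beyond the lower end, over the lncRNA gene 4930512J16Rik. Sema4f had 4, the strongest of fold 7.52 and 88 reads lying 29701 bp beyond its 3′ end over the lncRNA gene 2310069B03Rik. Inside Sema4f, a p300 peak of 46 reads lay in the strongest H3K4me3 peak inside any of the 64 genes (chromosome 6, 82916877 to 82918151), which had fold 10.5, −log10 q 200 and 315 reads. That peak lies 22243 bp from the listed start, where the H3K4me3 summit held 58 reads, and no other annotated gene lies over it or ends within 1 kb. Efna5 had 2 p300 peaks inside, with 36 and 22 reads, and one 1646 bp outside with 39. Sema4d, the ligand of plexin-B1, had 1 inside with 30 reads and 2 outside within 1 kb of an end of the cell cycle gene Cks2.

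The 2 guidance genes with the most p300 peaks within 50 kb had none of these peaks inside the gene. In all, 2 of 64 had at least 5 such peaks, where 1.53% of all protein-coding genes did. Sema4a, a membrane-bound semaphorin of immune and retinal cells, had 6, of which 5 lay over the lamin gene Lmna and 1 over Slc25a44. They held 45 to 199 reads, and none lay in Sema4a. Sema3b, which in human cells is a p53-inducible tumour suppressor, had 5, all outside it, of which 4 lay over Gnai2, Hyal1, Ifrd2 and Rassf1. The remaining one, with fold 5.93, −log10 q 74.2 and 181 reads, lay 2587 bp beyond its upper end with no annotated gene over it (chromosome 9, 107611828 to 107612998). Sema4g, Ntn5 and Ntn3 had 4 each, none inside, with 4, 4 and 3 of them over other protein-coding genes. Plxnb2 and Sema6b each had 2 further peaks beyond the one at the start, and Sema4b had 1 at Cib1. Efnb3 and Plxnb3, which lacked H3K4me3 inside and up to 1 kb away, each had 1 p300 peak within 50 kb. That of Efnb3 was the peak of 34 reads at Trp53 and Wrap53, 18796 bp away.

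**Figure D5:**
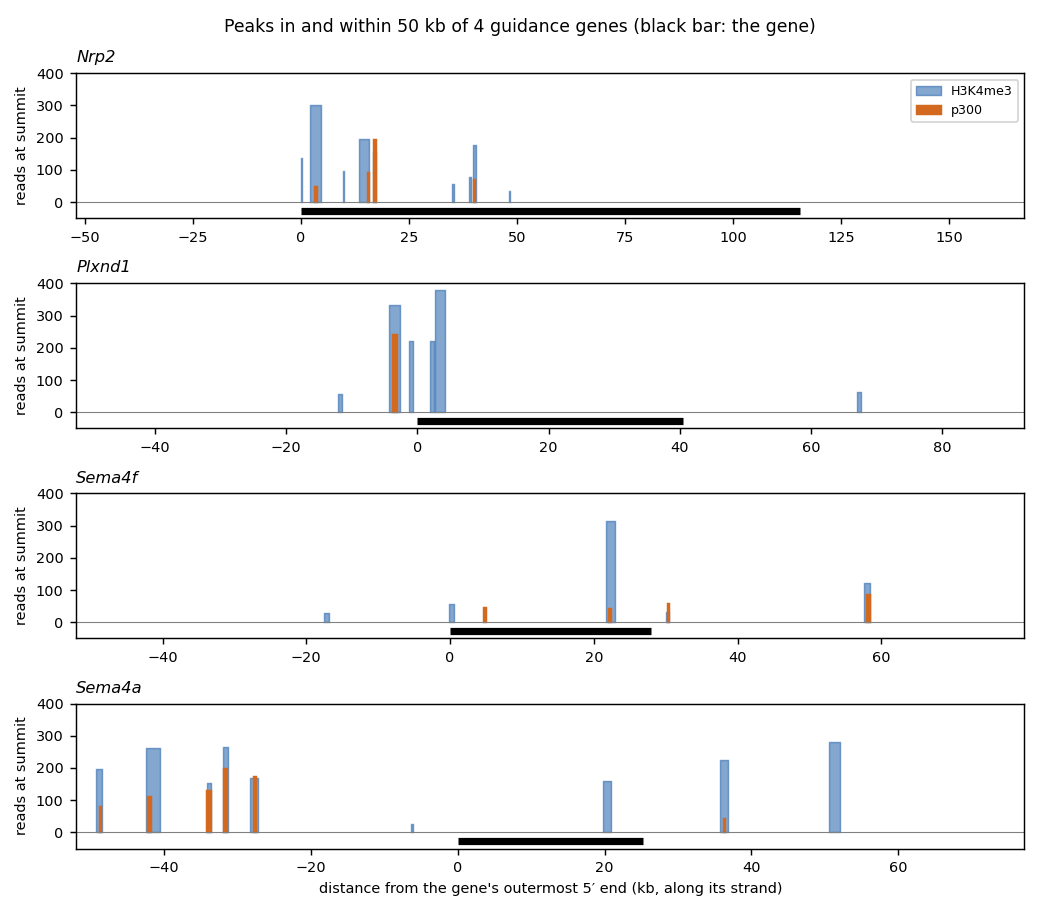
H3K4me3 peaks (blue) and p300 peaks (orange) in and within 50 kb of Nrp2, Plxnd1, Sema4f and Sema4a, placed by distance in kb from the gene's outermost 5′ end along its strand (horizontal axis), with bar height giving the reads at the summit. Bar width is the peak's width, with a minimum for display and p300 bars narrowed, and the black bar is the gene. The p300 peaks of Nrp2 lie in the first part of the gene, the 243-read peak of Plxnd1 lies upstream, and 5 of the 6 near Sema4a lie upstream over Lmna.

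Ligands and receptors known to bind each other can be set side by side. Sema3e and Plxnd1, Efna1 and Epha2, Efnb2 and Ephb4, and Sema7a and Plxnc1 all had H3K4me3 at an end. Sema4c and Plxnb2 both had H3K4me3 and p300 at a start, and Slit2 and Robo1 both had H3K4me3 at an inner start and p300 inside the gene. Sema4d had H3K4me3 at an end and not at its listed start, and its receptor Plxnb1 at the start and not at an end. Other known pairs were not marked together. Sema3a and Sema3f lacked H3K4me3 at an end while Nrp1 and Nrp2 had it, and Ntn1 and Dcc, like Sema5a and Plxnb3, lacked it inside and up to 1 kb away in both genes. The pairs are a selection made with the values known, carry no test and give no rate of joint marking.

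Co-receptors and effectors of guidance signalling were counted in the same way. Of 51 such genes 37 had H3K4me3 at an end (72.5%, 58.3 to 84.1%), against 50.5% of all protein-coding genes. p300 was at an end of 9 (17.6%, 8.40 to 30.9%), against 13.5%, a share inside the interval. Within 50 kb p300 was found for 32 (62.7%, 48.1 to 75.9%), against 44.2%. Unlike those of the members, these shares were not split by gene length or recomputed at stricter peak thresholds. The differences were not tested. The strongest p300 peak within 50 kb was that of Srgap1, which encodes a GTPase-activating protein downstream of robos, with fold 10.1 and 234 reads inside the gene. Met, the receptor of hepatocyte growth factor and a partner of plexin-B1, had one of 153 reads inside the gene among 6 within 50 kb. Farp2, an exchange factor bound to plexin-A, had one of 106 reads at 32759 bp, and Mical1, an oxidase acting on actin downstream of plexins, one of 63 reads at 31737 bp. The netrin receptor genes Dcc, Unc5a and Unc5d lacked H3K4me3 inside and up to 1 kb away, while Neo1, Unc5b and Unc5c had it at an end.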

How the data were processed

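The lists of 2 CUT&Tag libraries of B16 cells were used, 1 for H3K4me3 and 1 for p300, assigned by sample title. Trim Galore, Bowtie2 2.2.5, Picard 2.22.4, deepTools and the build mm10 appear in the submitters' processing notes. Which program called the peaks, and whether it used a control or pooled samples, is a step not given in the sources used here. Every peak has, as deposited by the authors, a score (10 times the −log10 q, to within rounding), a fold enrichment (the ratio of summit to background), a −log10 p, a −log10 q and the summit's offset. These are the authors' values and were used within a list.

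Reads at summits were computed with scipy 1.17.1, on the assumption that the fold is (reads + 1) over (background + 1) and −log10 p a Poisson tail. A whole number of reads matched the authors' −log10 p to 0.002 in 99.98% of H3K4me3 and 99.97% of p300 peaks, and in all 374 peaks in or near members. Read totals are unknown. PCR copies are not independent molecules.

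Gene spans came from RefSeq GRCm38.p6 (the chromosomes of mm10), and strands, starts and upstream sequences from its promoter table. Peaks counted with at least 1 bp in a window of 1 kb around either end, in the gene or within 1 kb, or in the gene extended by 50 kb on both sides. Peaks on scaffolds and the mitochondrial chromosome were left out. Counting was tested on simulated data. Shares were set beside those of all protein-coding genes, and no p-value was computed.

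Genes named are those with p300 at an end, the 3 strongest H3K4me3 end peaks by −log10 q in each family, the 10 genes with most p300 peaks (13 with ties), those with p300 but no H3K4me3 and those with no peak. Others were named after their values were seen. The members, lists and rule were chosen with earlier results of these data known.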

Additional observations from a re-analysis of the deposited data

How the results depend on the processing

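Of 33 alternatives tried over 6 counts, 19 left the count within 1.5 times of the main one and 14 did not. The number of members with p300 at an end was small and moved most, from 3 to 1 with a window of 500 bp, 5 with 2 kb, 6 with listed starts alone, 1 when the summit had to lie in the window, 0 among peaks at or above the median fold and 1 among those at or above the median −log10 q. Among peaks at or above the median fold, members with H3K4me3 at an end fell to 14 (21.9%, against 34.4% of all genes), with H3K4me3 in the gene or within 1 kb to 31 (48.4% against 42.3%), with p300 in the gene or within 1 kb to 6 (9.38% against 10.9%) and with p300 within 50 kb to 14 (21.9% against 27.6%). Among peaks at or above the median −log10 q the count was 21 for H3K4me3 at an end (32.8% against 42.3%). It was 8 for p300 in the gene or within 1 kb (12.5% against 10.5%) and 20 for p300 within 50 kb (31.2% against 27.1%). At that threshold on both lists, 29 of 37 p300 peaks overlapped H3K4me3. The share with H3K4me3 at an end was below that of all genes at both medians and with a window of 500 bp (43.8% against 47.5%). The shares with p300 in the gene or within 50 kb were below at the median fold but above at the median −log10 q. With all peaks these shares lie above. Stricter thresholds keep fewer peaks by construction. A threshold of 5 on −log10 q removed nothing. No paired analysis was possible because each antibody has 1 library, and no library could be left out. Depth limits every absence stated here.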
